A study of Homo sapiens with 9 samples.

Results

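The 99 genes described here had lower RNA levels in the libraries labelled SM2 and in those labelled SM4 than in the libraries labelled NC. Levels are in CPM, the count of a gene scaled to a library total of 1000000 counts. A gene became a member when its mean over the 9 libraries was at least 1 CPM, when its mean in NC was at least 1.4 times its mean in SM2 and in SM4, and when each of the 6 libraries labelled SM2 or SM4 lay below each of the 3 labelled NC. A mean of 1 CPM was reached by 14432 of the 60649 genes counted, and 99 of these (0.686%) met the whole rule. The members were thus chosen by their levels in NC, SM2 and SM4, so their distance from NC is given as a description, with no test. A further 5 genes passed both ratios with at least 1 library inside the range of NC. The same rule turned round, for genes raised in both groups, took 413 genes (2.86%).

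The libraries came from OVCAR5, an established human ovarian cancer cell line, made into stable lines by lentiviral transduction and selection with puromycin. Each of the labels NC (the control), SM2 and SM4 covers 3 libraries. SM2 and SM4 are described as knockdowns of METTL3, the catalytic subunit of the complex that writes N6-methyladenosine (m6A) on RNA, while the control is parental cells in the labels and a control hairpin in the methods of the study. Which hairpin belongs to SM2 or SM4, and whether a line was a pool or a single clone, is not stated. In the source field the libraries labelled SM4 carry other OVCAR names, although the cell line field reads OVCAR5 for all 9 libraries.

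METTL3 did not follow these labels, although reads from the stretch it shares with TOX4, which overlaps it, cannot be told apart if strand was not used. It was at 36.0, 34.0 and 36.7 CPM in the libraries labelled NC, at 36.8, 39.8 and 40.3 CPM in those labelled SM2, and at 61.2, 57.1 and 63.1 CPM in those labelled SM4. All libraries labelled SM4 lay above every library labelled NC (log2 fold change 0.75, adjusted p 2.21e-09), and SM2 against NC did not pass the threshold (0.12, adjusted p 0.12). The labels NC and SM4 may therefore be exchanged, and a supplementary list of the study, set beside these counts, reads as if they were. Here METTL3 had log2 fold changes of 0.75 for SM4 against NC and 0.63 for SM4 against SM2. LOXL2, a member, had -1.89 and -1.34. For the first and the other METTL3 hairpin against control, the list prints the same sizes with the sign turned. If the labels are exchanged, the libraries labelled SM4 would be the control, and those labelled NC and SM2 the knockdowns. The members would then be genes that stood highest in 1 knockdown. Groups keep their deposited labels here, so each direction below holds between libraries as labelled and not between knockdown and control. Totals ran from 44103272 to 63693728 counts, and the lowest count of any member in any library was 23. SM2 replicate 3 stood apart from the other replicates of its group, with a chi-square of 13.8 and 16.7 per degree of freedom against them, where pairs within the other groups and the remaining SM2 pair gave 4.21 to 6.04. The 9 epithelial markers were all above 1 CPM, and of the leukocyte markers PTPRC, CD3E and CD68 were under 0.1 CPM. The leukocyte markers CD14 and LYZ, the endothelial marker PECAM1 and the fibroblast marker COL1A1 were also above 1 CPM.

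Several members are textbook targets of inducible gene control. NRF2 is a transcription factor that is held low by KEAP1 and, once released by oxidants or electrophiles, switches on enzymes of glutathione synthesis, NADPH supply and drug detoxification through the antioxidant response element. NF-kB and AP-1 are factors that answer cytokines, growth factors and stress, and drive inflammatory genes such as interleukins, chemokines and the prostaglandin enzyme PTGS2. Many of the messages that these factors induce are short-lived, and AU-rich elements or m6A in the message are among the features that set how fast they decay.

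Promoters of 8 members are shown here because they hold the letters of these elements upstream of the start. Each is the 250 bases before the RefSeq start site (build GRCh38.p14), written 5′ to 3′ on the strand of the gene. Capitals mark a match on either strand. The elements are NF-kB (GGGRNWYYCC), AP-1 (TGANTCA) and, for the last 3, the antioxidant response element core (TGACNNNGC). In these letters R is A or G, Y is C or T, W is A or T and N is any base. Only full matches are marked, so a near match to the NF-kB element such as tggaatttcc in CXCL8 is not. Positions count from the start site at 0. CXCL8 lies at chr4:73740319-73740568 (+), IL6 at chr7:22726950-22727199 (+), BIRC3 at chr11:102317234-102317483 (+), TNIP3 at chr4:121227484-121227733 (-), MIR155HG at chr21:25561895-25562144 (+), GCLM at chr1:93909431-93909680 (-), GPX2 at chr14:64942746-64942995 (-) and ME1 at chr6:83431052-83431301 (-).
CXCL8: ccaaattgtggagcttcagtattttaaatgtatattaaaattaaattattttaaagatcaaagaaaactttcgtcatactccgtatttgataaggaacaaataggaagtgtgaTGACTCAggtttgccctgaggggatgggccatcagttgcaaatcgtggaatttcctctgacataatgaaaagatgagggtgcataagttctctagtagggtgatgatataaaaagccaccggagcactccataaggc
IL6: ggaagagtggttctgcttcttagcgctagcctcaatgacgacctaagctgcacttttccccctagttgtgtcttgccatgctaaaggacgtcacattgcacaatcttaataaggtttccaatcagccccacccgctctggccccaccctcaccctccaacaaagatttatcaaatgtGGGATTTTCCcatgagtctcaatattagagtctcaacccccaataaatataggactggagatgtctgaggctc
BIRC3: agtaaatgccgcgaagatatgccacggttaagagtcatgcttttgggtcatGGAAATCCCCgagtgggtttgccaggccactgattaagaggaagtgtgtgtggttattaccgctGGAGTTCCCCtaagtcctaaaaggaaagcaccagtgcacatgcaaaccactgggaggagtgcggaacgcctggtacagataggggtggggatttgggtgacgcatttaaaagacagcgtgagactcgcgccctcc
TNIP3: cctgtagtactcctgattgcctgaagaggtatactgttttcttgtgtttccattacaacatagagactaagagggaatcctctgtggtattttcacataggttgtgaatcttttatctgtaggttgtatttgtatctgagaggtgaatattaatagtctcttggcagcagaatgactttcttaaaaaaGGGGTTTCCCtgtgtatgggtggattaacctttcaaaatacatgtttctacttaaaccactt
MIR155HG: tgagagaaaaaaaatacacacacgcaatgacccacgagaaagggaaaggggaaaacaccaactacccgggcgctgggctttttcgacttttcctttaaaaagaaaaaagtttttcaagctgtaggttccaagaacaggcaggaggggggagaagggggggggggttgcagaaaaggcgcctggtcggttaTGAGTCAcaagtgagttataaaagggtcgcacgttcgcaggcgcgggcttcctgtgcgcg
GCLM: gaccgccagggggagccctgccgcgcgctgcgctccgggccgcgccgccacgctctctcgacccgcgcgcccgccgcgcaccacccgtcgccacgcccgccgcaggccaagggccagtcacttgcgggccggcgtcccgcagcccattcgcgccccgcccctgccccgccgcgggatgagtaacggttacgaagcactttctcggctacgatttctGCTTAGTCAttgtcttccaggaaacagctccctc
GPX2: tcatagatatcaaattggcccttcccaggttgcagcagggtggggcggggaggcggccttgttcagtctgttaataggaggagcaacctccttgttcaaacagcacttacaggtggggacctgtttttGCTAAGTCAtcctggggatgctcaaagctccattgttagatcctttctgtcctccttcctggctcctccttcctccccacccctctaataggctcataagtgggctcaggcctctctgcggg
ME1: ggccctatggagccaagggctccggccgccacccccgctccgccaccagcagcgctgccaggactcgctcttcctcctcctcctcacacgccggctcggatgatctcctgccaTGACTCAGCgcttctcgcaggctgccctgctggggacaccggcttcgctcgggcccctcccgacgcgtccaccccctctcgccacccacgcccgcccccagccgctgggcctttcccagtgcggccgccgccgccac

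The AP-1 match in CXCL8 begins at position -137 and that in MIR155HG at -60. IL6 holds its NF-kB match at -73, TNIP3 at -62 and BIRC3 at -199 and -135. The antioxidant core begins at -34 in GCLM, at -122 in GPX2 and at -137 in ME1, where an AP-1 match starts at the same base, so the elements overlap. PIR, a further member of the NRF2 list, holds both at positions 26 and 28 after the start.

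RefSeq windows of 300 bases, from 250 before to 50 after the start, were matched for 75 of the 95 members with a symbol, and the elements were searched on both strands. The AP-1 element was in 11 member windows (14.7%), in 4.54% of the 10392 windows of genes of at least 1 CPM and in 7.76% of all 27305 windows. Besides CXCL8, MIR155HG, ME1 and PIR the holders were DOCK4, GNG2, LAMA3, LINC00973, NCKAP5, TMEM156 and TNIP3. The antioxidant core was in 13 member windows (17.3%), against 15.3% of genes of at least 1 CPM and 13.6% of all windows, and 4 of the holders (GCLM, GPX2, ME1 and PIR) belong to the NRF2 list. The NF-kB element, in full matches to GGGRNWYYCC, was in 7 (9.33%, against 6.85% and 5.72%). The cAMP response element TGACGTCA was in 0 of 75 (against 3.27% and 1.98%), the aryl hydrocarbon receptor core GCGTG in 36 (48.0%, against 50.9% and 36.3%), the TEAD element GGAATG in 6 (8.0%, against 10.8% and 14%) and the C/EBP element TTGCGCAA in 1 (1.33%, against 0.212% and 0.128%). These are counts of letters in a short window and say nothing of binding. Promoter windows were not matched for 20 members, among them HMOX1, CYP1B1, TRIM16L and MUC5AC.

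By type 86 members were protein-coding, 9 were long non-coding RNAs and 4 were pseudogenes. Their mean level in NC ran from 1.399 to 876.1 CPM with a median of 8.65 CPM, where the median over all genes of at least 1 CPM was 26.3 CPM. A mean under 10 CPM was found for 54 members (54.5%), against 31.8% of those genes. Together the members took 0.518% to 0.546% of the counts in the libraries labelled NC, 0.322% to 0.346% in those labelled SM2 and 0.308% to 0.323% in those labelled SM4. The ratio of NC to SM2 ran from 1.401 to 3.52 with a median of 1.61, and the ratio of NC to SM4 from 1.41 to 3.69 with a median of 1.71. Most differences were therefore modest, and 4 members (F5, PTGS2, KYNU and KIAA1755) were at least 2-fold lower in both groups. When each library was left out in turn, 64 of the 99 kept their place every time and 35 lost it at least once. Some of these, such as NCKAP5 and MIR155HG, lost it because the mean of the remaining libraries fell below 1 CPM.

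**Figure D1:**
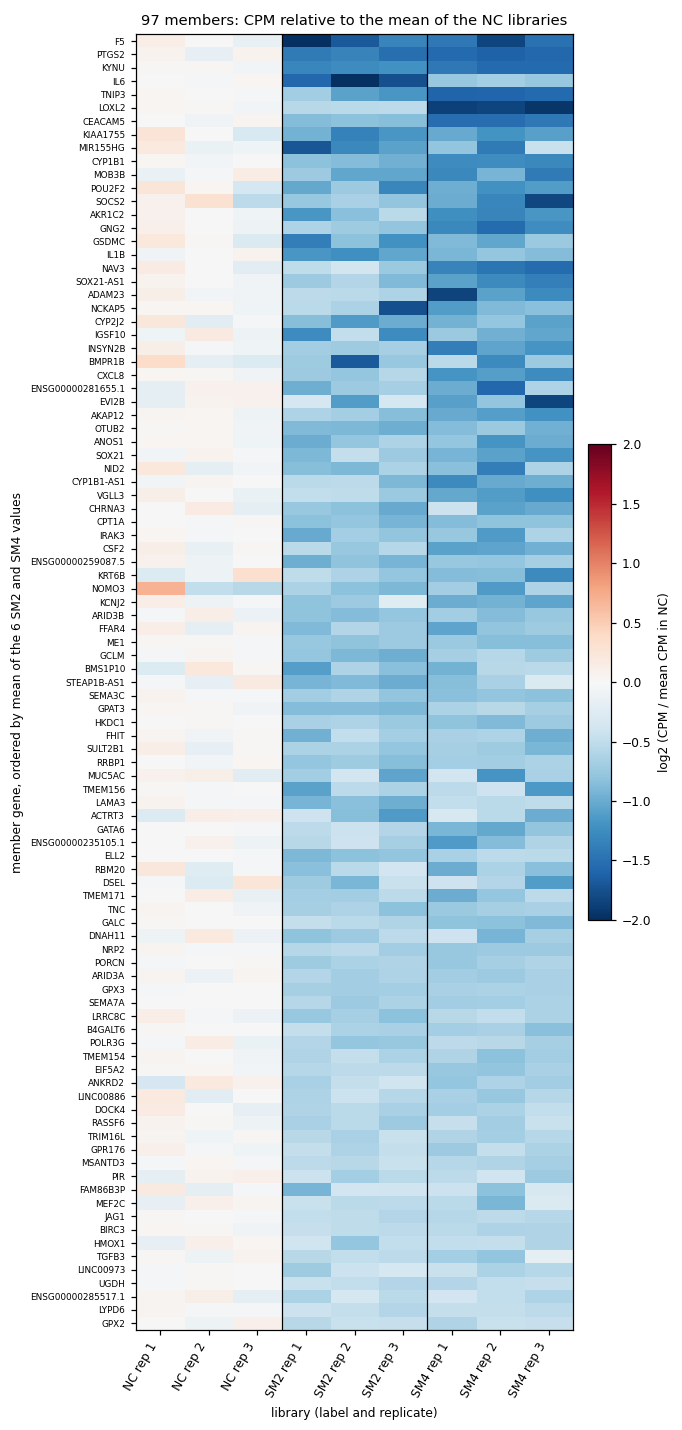
Each row is 1 of 97 members and each column 1 library, and the colour is the log2 ratio of its CPM to the mean CPM in NC, with the darkest blue for -2 and below. The rows run from F5 and PTGS2 at the top to LYPD6 and GPX2 at the bottom, and NC replicate 1 of NOMO3 is the darkest red cell.

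In this plot by library, the 6 columns labelled SM2 and SM4 are blue in every row, as the rule requires, and depth of colour differs between the groups for single genes. IL6 is darker in SM2, and LOXL2, CEACAM5, NAV3 and ADAM23 are darker in SM4. NOMO3 was at 13.5, 5.95 and 5.73 CPM in the libraries labelled NC, so its place rests on replicate 1, and without that library it was no longer a member. Its counts are also uncertain because NOMO1 and NOMO2 are near-identical copies.

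F5, coagulation factor V, had the largest smaller ratio (3.14 for NC to SM2 and 2.98 for NC to SM4). It was at 4.67, 4.29 and 3.86 CPM in the libraries labelled NC, 1.04, 1.33 and 1.71 CPM in SM2 and 1.595, 1.19 and 1.52 CPM in SM4. PTGS2, the inducible cyclooxygenase of prostaglandin synthesis, was at 105, 88.8 and 105 CPM in NC, 37.4, 39.4 and 34.9 CPM in SM2 and 33.8, 32.3 and 33.4 CPM in SM4. For PTGS2 the libraries labelled SM4 all lay just below those labelled SM2, and for F5 they overlapped. KYNU, the kynureninase of tryptophan breakdown, was at 67.8, 67.2 and 64.3 CPM in NC, 26.97, 27.8 and 28.7 CPM in SM2 and 24.6, 22.6 and 22.5 CPM in SM4, again with SM4 below SM2. In bulk libraries fewer cells that express a gene and less of its RNA per cell cannot be told apart.

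The next members were expressed at a few CPM, where the libraries of a group differ more. TNIP3, an inhibitor of NF-kB signalling, was at 5.24, 5.07 and 4.96 CPM in NC, 3.15, 2.41 and 2.26 CPM in SM2 and 1.68, 1.696 and 1.73 CPM in SM4. CYP2J2, a P450 enzyme that makes epoxides of arachidonic acid, was at 6.303, 4.64 and 5.28 CPM in NC, 2.999, 2.45 and 2.72 CPM in SM2 and 2.81, 3.17 and 2.58 CPM in SM4. For TNIP3 the libraries labelled SM4 all lay below those labelled SM2, and for CYP2J2 they overlapped. POU2F2, a transcription factor known from B cells, MOB3B, a member of the MOB family of kinase regulators, KIAA1755 and IGSF10 had smaller ratios between 1.87 and 2.14. GSDMC, a gasdermin, and NCKAP5 closed the first 12, with smaller ratios of 1.84 and 1.84. NCKAP5 was at 1.02, 0.957 and 0.437 CPM in SM2, with replicate 3 the lowest. It left the rule when any 1 library labelled NC was left out, because its mean then fell below 1 CPM.

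**Figure D2:**
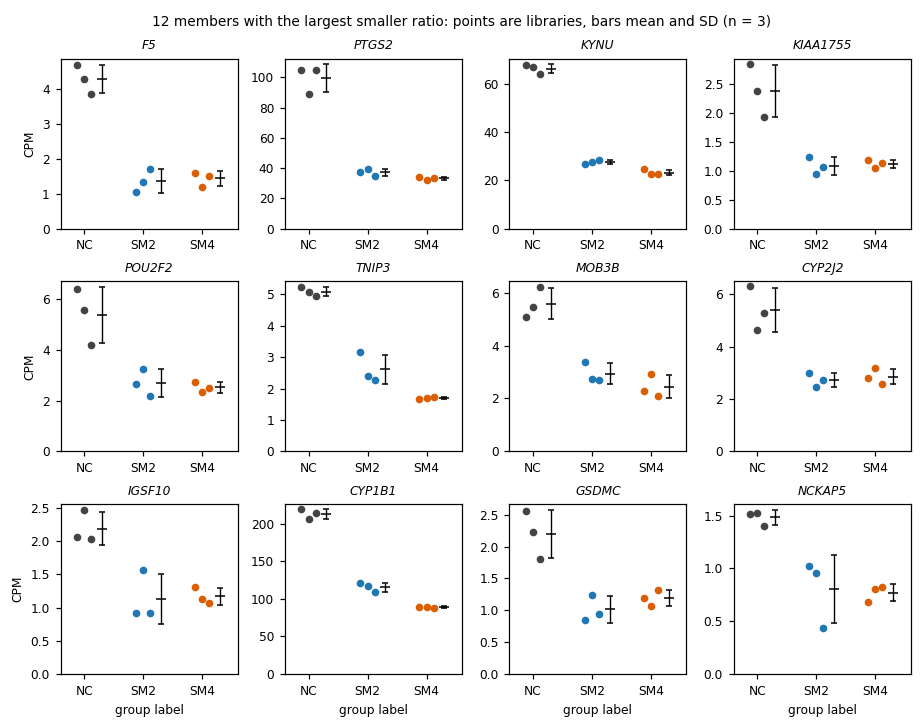
CPM (linear axis from 0) of the 12 members with the largest smaller ratio in each library, with mean and SD (n = 3 libraries per label). In all 12 panels the SM2 and SM4 points lie below the NC points, and in 4 of them (PTGS2, KYNU, TNIP3 and CYP1B1) every SM4 point also lies below every SM2 point.

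CYP1B1, a P450 enzyme that oxidises estrogens and polycyclic hydrocarbons, was the only one of these 12 that was also among the 8 members with the highest counts. It was at 219, 206 and 214 CPM in NC, 121, 117 and 109 CPM in SM2 and 89.1, 89.8 and 87.3 CPM in SM4. BIRC3, an inhibitor of apoptosis and an NF-kB target that left the rule without NC replicate 1 or 2 or SM2 replicate 3, had the most counts of all members, at 898, 895 and 836 CPM in NC, 636, 618 and 613 CPM in SM2 and 600.0, 574 and 577 CPM in SM4. MUC5AC, a secreted mucin of the stomach and airway, was at 480.5, 491 and 389 CPM in NC, 279.7, 349 and 219 CPM in SM2 and 348, 200.1 and 291 CPM in SM4. SM2 replicate 2 and SM4 replicate 1 of MUC5AC lay nearest to NC, and SM2 and SM4 overlapped. The others were NRP2, a receptor for semaphorins and VEGF (1.51 and 1.67 for the ratios of NC to SM2 and to SM4), RRBP1, a ribosome-binding protein of the endoplasmic reticulum (1.72 and 1.59), GPX2, CXCL8 and AKAP12, a scaffold for protein kinase A (1.64 and 2.16). Per kilobase of exon GPX2 (141 CPM per kb in NC), BIRC3 (117 CPM per kb) and CXCL8 (72.4 CPM per kb) stood above NRP2 (33 CPM per kb) and MUC5AC (26 CPM per kb).

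**Figure D3:**
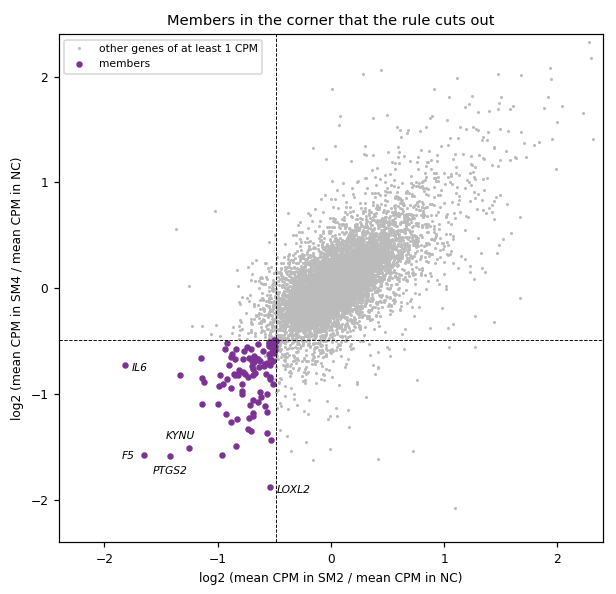
Each point is a gene of at least 1 CPM, placed by its log2 ratio of SM2 to NC (horizontal) and of SM4 to NC (vertical), with the 99 members in purple, the 1.4-fold limits as dashed lines and 23 genes beyond the axes. F5, PTGS2 and KYNU were low in both, IL6 lay farthest left and LOXL2 lowest among the members.

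In the scatter of ratios both axes share the NC libraries and the corner that holds the members was set by the rule. Within that corner the balance between SM2 and SM4 differed from gene to gene. IL6 had the largest ratio of NC to SM2 (3.52) with 1.66 for NC to SM4, and LOXL2 had the largest ratio of NC to SM4 (3.69) with 1.46 for NC to SM2. Near the limit the order of genes is arbitrary. GPX2, with ratios of 1.401 and 1.414, and a long non-coding RNA with the identifier ENSG00000285517, with 1.417 and 1.407, were just inside. HPDL (1.398 and 1.418) and GOLGA7B, whose ratio of NC to SM2 rounds to 1.4 but lay under the limit, were just outside.

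The functions that the members share were read from 61 lists of genes written from general knowledge with earlier results of these data known. In all 52 members stood in at least 1 list and 47 in none. With 11 members that stood highest in the libraries labelled NC the NRF2 and xenobiotic list held the most, 18.6% of its 59 genes of at least 1 CPM, where members made up 0.686% of all such genes. The 11 were CYP1B1, GPX2, GPX3, UGDH, GCLM, ME1, TRIM16L, PIR, HMOX1, AKR1C2 and CYP2J2. Cytokines and chemokines followed (4 of 29, 13.8%), then names that begin as cytochromes P450 do (3 of 24, 12.5%, of which CYP1B1 and CYP2J2 are enzymes and CYP1B1-AS1 is an antisense RNA), lymphoid and myeloid cell genes (2 of 29, 6.9%), NF-kB pathway and targets (3 of 44, 6.82%), stomach and intestine epithelium (3 of 46, 6.52%), extracellular matrix (4 of 65, 6.15%), interleukins and their receptors (2 of 35, 5.71%), neuron and synapse genes (2 of 37, 5.41%) and the TGF-beta and BMP pathway (2 of 54, 3.7%). Counts of 2 to 4 genes are small, and no enrichment was tested.

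**Figure D4:**
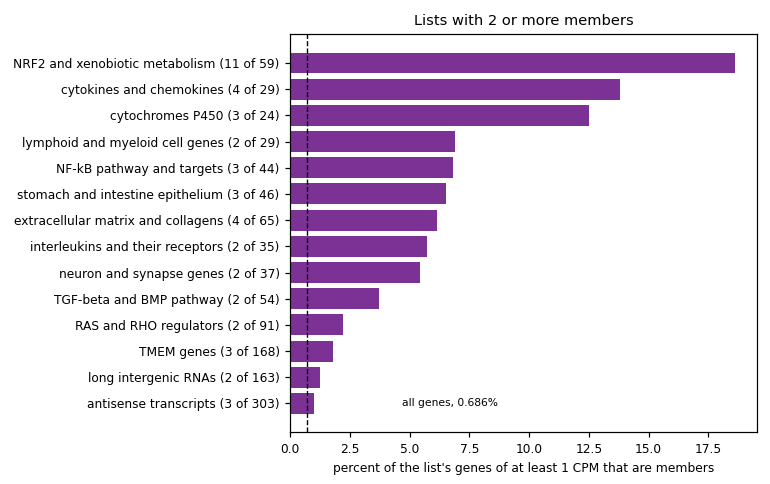
Bars give the percentage of a list's genes of at least 1 CPM that are members, for the 14 lists with 2 or more members, and the dashed line is the 0.686% of all genes. The NRF2 and xenobiotic list leads with 18.6%, and antisense transcripts are nearest to the line with 0.99%.

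Within the NRF2 and xenobiotic list the members cover several enzyme classes. GCLM, the modifier subunit of the enzyme that starts glutathione synthesis, was at 85.2, 89.4 and 83.8 CPM in NC, 50.2, 46.1 and 43.6 CPM in SM2 and 54.1, 57.8 and 52.5 CPM in SM4. GPX3, a secreted glutathione peroxidase, was at 132, 136 and 136 CPM in NC, 84.8, 83.5 and 84.4 CPM in SM2 and 86.2, 86.99 and 86.2 CPM in SM4. For GPX3 all SM4 libraries lay slightly above all SM2 libraries, and for GCLM by more. GPX2, the glutathione peroxidase of gut epithelium, was at 188, 177 and 202 CPM in NC, 128, 138 and 138 CPM in SM2 and 124, 139.6 and 138 CPM in SM4. ME1, malic enzyme, which supplies NADPH, was at 70.5, 70.02 and 67.2 CPM in NC, 40.97, 39.7 and 41.9 CPM in SM2 and 41.4, 38.4 and 38.5 CPM in SM4. UGDH, which makes the UDP-glucuronate used in conjugation, was at 122, 127 and 125 CPM in NC, 91.1, 88.3 and 83.4 CPM in SM2 and 83.1, 88.2 and 90.4 CPM in SM4. The SM2 and SM4 libraries overlapped for GPX2, ME1 and UGDH.

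HMOX1, heme oxygenase, was closer to the limit, at 23.9, 28.6 and 27.6 CPM in NC, 20.2, 15.6 and 19.02 CPM in SM2 and 19.03, 19.1 and 17.5 CPM in SM4. PIR, an iron-binding nuclear protein, was at 26.5, 31.7 and 32.3 CPM in NC, 22.5, 18.8 and 20.7 CPM in SM2 and 21.02, 22.8 and 18.1 CPM in SM4. Leaving out 1 library took HMOX1 out of the rule (NC replicate 2 or SM2 replicate 2), and likewise PIR (SM2 replicate 2 or SM4 replicate 3), UGDH (SM2 replicate 3 or SM4 replicate 1) and GPX2 (NC replicate 3, SM2 replicate 1 or SM4 replicate 1), so the list held 9 to 11 members over these settings. AKR1C2, an aldo-keto reductase of steroids, had ratios of 1.77 and 2.35 at 7.32, 6.84 and 6.495 CPM in NC, and TRIM16L, a pseudogene, had 1.46 and 1.54. Both are uncertain, since AKR1C2 shares most of its sequence with AKR1C1 and AKR1C3 and TRIM16L with TRIM16.

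The other genes of the list did not all share this pattern. Of its 48 genes that were not members, 17 were called lower and 4 higher in SM2 against NC, and 16 lower and 10 higher in SM4 against NC, with median log2 fold changes of -0.04 and -0.06. Among all 19674 genes tested 22.3% were called in SM2 against NC and 21.2% in SM4 against NC. Among those of at least 1 CPM 28.4% and 27% were called in these comparisons: 13.6% were called lower and 14.8% higher in SM2 against NC, and 13.4% and 13.5% in SM4 against NC. NQO1, a quinone reductase, fell from 492 to 381 and 441 CPM (adjusted p 1.03e-06 and 0.00448), GCLC, the catalytic partner of GCLM, from 96.1 to 79.8 and 80.8 CPM (adjusted p 0.000157 and 0.00023), and TXNRD1, thioredoxin reductase, from 929 to 799 and 792 CPM (adjusted p 0.000594 and 0.000272). In contrast ALDH3A1, an aldehyde dehydrogenase, rose from 85.6 to 115 and 175 CPM (adjusted p 4.09e-06 and 1.33e-11). SLC7A11, the cystine transporter, fell to 151 CPM in SM2 (adjusted p 0.00321) and rose to 211 CPM in SM4 (adjusted p 0.00729) from 179 CPM in NC. NFE2L2, which encodes NRF2, was at 164, 162 and 173 CPM in NC, SM2 and SM4 (adjusted p 0.783 and 0.304), and KEAP1 at 89.3, 89.4 and 90.7 CPM (adjusted p 0.948 and 0.937).

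Of the inflammatory mediators CXCL8, IL6, IL1B and CSF2 were members. CXCL8, the neutrophil chemokine interleukin 8, was at 193, 191 and 178 CPM in NC, 113, 109.6 and 126 CPM in SM2 and 82.5, 87.1 and 77.98 CPM in SM4. IL6, interleukin 6, was at 4.74, 4.56 and 4.84 CPM in NC, 1.59, 1.04 and 1.39 CPM in SM2 and 2.79, 2.94 and 2.798 CPM in SM4. These 2 moved in opposite order, CXCL8 lower in SM4 than in SM2 and IL6 lower in SM2 than in SM4, with no overlap between the groups. IL1B, interleukin 1 beta, was at 15.7, 16.5 and 17.3 CPM in NC, 7.35, 7.05 and 8.02 CPM in SM2 and 8.74, 9.61 and 9.05 CPM in SM4. CSF2, which encodes GM-CSF, was at 9.36, 7.82 and 8.75 CPM in NC, 5.98, 5.12 and 5.795 CPM in SM2 and 4.12, 4.18 and 4.45 CPM in SM4. IL1B again had its lowest libraries in SM2 and CSF2 in SM4.

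Of the 25 other genes in the cytokine list, 8 were called lower and 8 higher in SM2 against NC, and 11 lower and 5 higher in SM4 against NC. CXCL1, a neutrophil chemokine, fell from 204 to 175 and 112 CPM (adjusted p 0.00146 and 6.63e-11), and IL1A, interleukin 1 alpha, from 23.3 to 16.7 and 10.6 CPM (adjusted p 0.000146 and 2.17e-09). IL1A was not a member because its NC level was under 1.4 times that in SM2. TNFSF10, the death ligand TRAIL, rose from 8.06 to 19.3 and 17.3 CPM (adjusted p 4.82e-09 and 2.92e-08). The 25 other genes thus went both ways in SM2, while in SM4 more of them were lower than higher. Their median log2 fold changes were 0.04 for SM2 and -0.22 for SM4 against NC.

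In the NF-kB list BIRC3, TNIP3 and IRAK3 were members. IRAK3, which restrains Toll-like receptor signalling, was at 6.802, 6.47 and 6.68 CPM in NC, 3.304, 4.14 and 3.86 CPM in SM2 and 3.92, 3.05 and 4.34 CPM in SM4. Among the other 41 genes, 6 were called lower and 7 higher in SM2 against NC, and 21 lower and 2 higher in SM4 against NC. Their median log2 fold changes were -0.001 for SM2 and -0.16 for SM4 against NC. NFKBIA, the inhibitor that NF-kB itself induces, was at 262, 242 and 235 CPM (adjusted p 0.0507 and 0.00787), and TNFAIP3, the feedback inhibitor A20, at 65.4, 70.7 and 71.9 CPM (adjusted p 0.154 and 0.0905). VCAM1, an adhesion molecule and among the 2 called higher in SM4, rose from 0.525 to 4.58 and 10.4 CPM (adjusted p 2.46e-10 and 3.87e-13).

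MIR155HG, the host transcript of the inflammatory microRNA miR-155, was a low-level member at 1.86, 1.49 and 1.54 CPM in NC, 0.4999, 0.666 and 0.779 CPM in SM2 and 0.947, 0.612 and 1.202 CPM in SM4. SM4 replicate 3 lay nearest to NC. Without NC replicate 1 MIR155HG was no longer a member, because its mean then fell below 1 CPM. Its mature products lie inside the host gene at chr21:25573983-25574006 (+) and chr21:25574022-25574043 (+) (RefSeq, GRCh38.p14), and are shown with the seed, bases 2 to 8, in capitals. The libraries measured poly(A) RNA, so the microRNAs themselves were not measured.
hsa-miR-155-5p: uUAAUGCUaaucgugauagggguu
hsa-miR-155-3p: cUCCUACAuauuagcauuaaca

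Of the matrix list LAMA3, TNC, LOXL2 and NID2 were members. LAMA3, a chain of an epithelial laminin, was at 149, 140.0 and 138 CPM in NC, 74.7, 79.7 and 72.6 CPM in SM2 and 101, 97.97 and 100.2 CPM in SM4. TNC, the matrix glycoprotein tenascin C, was at 83.7, 81.2 and 76.4 CPM in NC, 50.9, 52.2 and 45.8 CPM in SM2 and 47.9, 50.98 and 51.2 CPM in SM4. LAMA3 was lowest in SM2 and left the rule without NC replicate 1, and for TNC the groups SM2 and SM4 overlapped. LOXL2, an enzyme that crosslinks collagen, was at 71.9, 71.3 and 67.1 CPM in NC, 47.5, 48.4 and 48.5 CPM in SM2 and 19.1, 19.7 and 18.2 CPM in SM4, the widest step between SM2 and SM4 of any member, and it overlaps ENTPD4 on the same strand. NID2, the basement membrane protein nidogen 2, was at 3.29, 2.46 and 2.74 CPM in NC and had ratios of 1.73 and 1.88. Of the 61 other genes of the list, 10 were called lower and 20 higher in SM2 against NC, and 15 lower and 18 higher in SM4 against NC.

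Tissue lists held few members each. MUC5AC, CEACAM5 and GATA6 came from the list of stomach and intestine epithelium. CEACAM5, the carcinoembryonic antigen, was at 85.6, 80.97 and 88.6 CPM in NC, 46.9, 48.2 and 47.4 CPM in SM2 and 29.7, 29.6 and 31.6 CPM in SM4. GATA6, a transcription factor of endoderm, was at 9.12, 9.09 and 8.92 CPM in NC, 6.303, 6.74 and 6.02 CPM in SM2 and 4.802, 4.46 and 5.24 CPM in SM4. Both were lowest in SM4, with no overlap with SM2. Of the 43 other genes of this list 4 were called lower and 21 higher in SM2 against NC, and 12 lower and 14 higher in SM4 against NC.

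From the neuron list SEMA3C, a secreted guidance cue, was at 145, 135 and 135 CPM in NC, 85.8, 91.5 and 79.8 CPM in SM2 and 77.3, 80.2 and 78 CPM in SM4. ADAM23, a cell-surface protein without protease activity examined in the study and subject to the same doubt about labels, was at 7.12, 6.29 and 6.26 CPM in NC, 4.54, 4.49 and 4.29 CPM in SM2 and 1.81, 3.12 and 2.7 CPM in SM4. The spread of ADAM23 in SM4 came from replicate 1, the lowest of the 9. The study reports ADAM23 RNA as raised after METTL3 knockdown. Here ADAM23 had log2 fold changes of -1.37 for SM4 against NC and -0.81 for SM4 against SM2. For the first and the other METTL3 hairpin against control, the study's list prints nearly the same sizes with the sign turned. With the labels NC and SM4 exchanged, ADAM23 would thus be higher in both knockdowns, as the study reports. Among the 35 other genes of this list 3 were called lower and 12 higher in SM2 against NC, while in SM4 against NC all 14 called were higher. From the lymphoid and myeloid list POU2F2 was at 6.39, 5.56 and 4.21 CPM in NC, 2.65, 3.27 and 2.19 CPM in SM2 and 2.74, 2.34 and 2.48 CPM in SM4, with SM2 and SM4 overlapping. The summed leukocyte markers were at 40.6 to 45.0 CPM in NC, 58.6 to 63.2 CPM in SM2 and 41.6 to 44.2 CPM in SM4, carried by CD14 and LYZ. The endothelial sum, carried by PECAM1, was at 5.49 to 5.91 CPM in NC, 7.92 to 8.94 CPM in SM2 and 13.5 to 15.8 CPM in SM4. The gonadal and Muellerian sum, carried by PAX8 and MUC16, was at 15.9 to 18.2 CPM in NC, 25.3 to 39.7 CPM in SM2 and 17.1 to 23 CPM in SM4. The part of these marker sums in the members' values was not tested. The lists of liver (0 of 16 genes of at least 1 CPM), kidney tubule (0 of 7) and endothelial genes (0 of 11) held no member. Those of muscle (ANKRD2, 1 of 29), squamous epithelium (KRT6B, 1 of 31) and motile cilia (DNAH11, 1 of 33) held 1 each. Of all genes of at least 1 CPM 0.686% were members.

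TGFB3, a TGF-beta ligand, and BMPR1B, a receptor for bone morphogenetic proteins, were the members of that pathway, with levels in NC of 3.17, 2.91 and 3.299 CPM and 2.06, 1.42 and 1.32 CPM. Their ratios of NC to SM2 and to SM4 were 1.44 and 1.45 for TGFB3 and 1.98 and 1.76 for BMPR1B. JAG1, a Notch ligand, had ratios of 1.44 and 1.47, and PORCN, which lipidates Wnt ligands, 1.57 and 1.59. VGLL3, a cofactor of TEAD factors, had 1.495 and 2.17. RASSF6 and DOCK4, regulators of RAS-family signalling, had 1.56 and 1.45, and 1.51 and 1.51. Each of these pathways was present by 1 or 2 genes.

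Members outside the lists included enzymes of lipid and sugar metabolism and surface receptors, named here after their values were seen. CPT1A, which carries fatty acids into mitochondria, was at 59.9, 57.8 and 60.4 CPM in NC, 33.5, 34.6 and 31.2 CPM in SM2 and 32.6, 34.1 and 34.1 CPM in SM4. GPAT3, which starts glycerolipid synthesis, was at 98.2, 97.5 and 91.6 CPM in NC, 52.5, 52.3 and 51.6 CPM in SM2 and 61.6, 65.5 and 60.2 CPM in SM4. HKDC1, a hexokinase, had ratios of 1.59 and 1.74, and FFAR4, a receptor for long-chain fatty acids, had 1.66 and 1.79.

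Among the 13 non-coding members TRIM16L, LINC00973, FAM86B3P and the RNA ENSG00000285517 had the most counts. LINC00973 was at 13.6, 14 and 13.8 CPM in NC, 8.37, 10.2 and 10.7 CPM in SM2 and 10.1, 8.92 and 9.28 CPM in SM4, and LINC00886 had ratios of 1.45 and 1.58. FAM86B3P belongs to a family of near-identical copies, as does BMS1P10, so their counts are uncertain.

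Whole groups of genes were without a member. The interferon response (0 of 58 genes of at least 1 CPM), immediate-early genes (0 of 36), growth factors and their receptors (0 of 66), hypoxia and glycolysis (0 of 47), the unfolded protein and ATF4 response (0 of 54), DNA replication and mitosis (0 of 68), ribosomal proteins (0 of 78), solute carriers (0 of 245) and zinc finger genes of the C2H2 type (0 of 417) were among the 28 lists with none. At 0.686% a list of 58 genes would hold less than 1 member on average, and even the longest of these lists only a few. An empty list therefore says little about the members.

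Members were found on every autosome and on X. Chromosome 18 had the highest share (4 of 202 genes of at least 1 CPM, 1.98%), with B4GALT6, DSEL, GATA6 and LAMA3, followed by chromosome 4 (8 of 522, 1.53%), 14 (7 of 493, 1.42%) and 5 (8 of 639, 1.25%). Chromosome 16 had the lowest (1 of 670, 0.149%), and the member there was NOMO3. A difference of a few genes separates most chromosomes.

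Some members lay close together. There were 10 pairs of members within 500 kb of each other, made of 20 members (20.2%), whereas 4.6% of all genes of at least 1 CPM had another gene that is a member within that distance. Coordinates are from GENCODE v44 on GRCh38. RASSF6 (chromosome 4, 73571550 to 73620631) and CXCL8 (73740519 to 73743716) were 120 kb apart, and GNG2 (chromosome 14, 51826195 to 51979342) and NID2 (52004809 to 52069059) 25.5 kb. STEAP1B-AS1 (chromosome 7, 22563337 to 22573996) and IL6 (22725884 to 22732002) were 152 kb apart, and SEMA7A (chromosome 15, 74409289 to 74433958) and ARID3B (74541206 to 74598131) 107 kb. Others were BIRC3 with the RNA ENSG00000281655 (302 kb), CEACAM5 with POU2F2 (356 kb), TMEM156 with UGDH (466 kb), CYP1B1 with CYP1B1-AS1 and SOX21 with SOX21-AS1.

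Of the genes beside these pairs some were also lower in both groups and others were not. Between BIRC3 and the RNA ENSG00000281655, BIRC2 was at 134, 112 and 102 CPM in NC, SM2 and SM4. MMP7, also between them, was at 46.0, 65.3 and 56.6 CPM. RTRAF, which overlaps NID2 on the other strand, was at 124, 121 and 113 CPM in NC, SM2 and SM4. Beside CXCL8 the chemokines differed, with CXCL6 at 17.1, 13.2 and 10.3 CPM and PPBP at 47.5, 115 and 39.7 CPM. CEACAM6, next to CEACAM5, was at 943, 733 and 650 CPM, and CEACAM7 at 2.20, 5.29 and 2.34 CPM. Across all 643 non-members within 500 kb of a member, all 6 libraries lay below NC in 18.7%, against 10.5% of the 13670 non-members farther away and 11.4% of all genes of at least 1 CPM. Their median log2 ratio was -0.03 for SM2 and SM4 each, against 0.002 and 0.01 farther away. The last pairs overlap on opposite strands. CYP1B1-AS1 (4.13, 4.46 and 4.26 CPM in NC) lies across CYP1B1, and SOX21-AS1 (5.58, 5.36 and 5.06 CPM) across SOX21 (7.85, 8.53 and 7.98 CPM). Because the use of strand in counting is not stated, reads from the stretch that partners share cannot be told apart. The same holds for EVI2B, OTUB2 and DNAH11, which overlap NF1, DDX24 and CDCA7L on the other strand. Further members overlap a gene on the other strand too, among them IRAK3 (RBMS1P1), TGFB3 (IFT43), IGSF10 (MED12L), GPX2 (CHURC1) and the RNA ENSG00000285517 (CAPRIN2).

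The transcripts of the 86 protein-coding members were compared with those of all 12080 protein-coding genes of at least 1 CPM, using the Ensembl canonical transcript. Their median length was 4120 bases against 3380, and their median GC content 46.2% against 48.6%. The form GGACT, one of the sequences at which m6A is written, occurred a median of 0.819 times per kb against 0.926, and at least once in 80 members (93.0%) against 91.7%. The AU-rich nonamer TTATTTATT was found in 23 members (26.7%) against 10.1% of all, with 4 copies in KYNU, 3 in CSF2, 2 in IL1B, BIRC3, ELL2, KIAA1755 and RASSF6, and 1 each in CXCL8, PTGS2, JAG1 and 13 more. Longer transcripts hold more copies of any short sequence, and length was not adjusted for.

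The comparison of SM4 with SM2 was the only one that the rule did not set directly, although it put a ceiling on both groups. Because the rule chose the members on these same libraries, their share of calls and that of all genes are not from like sets. As labelled it sets 1 knockdown against the other, and with NC and SM4 exchanged it would set control against knockdown. All 99 members passed the filter on low counts and were tested within a fit of 19674 genes. Of these members 25 were called at an adjusted p below 0.05 (25.3%), 19 lower and 6 higher in the libraries labelled SM4, beside 12.8% of all genes tested and 16.8% of genes of at least 1 CPM. By direction 6.76% of all genes tested were called lower, and of genes of at least 1 CPM 8.9% were called lower and 7.89% higher. An unadjusted p below 0.05 was reached by 37 members. The median log2 fold change was -0.06 over the members and -0.001 over genes of at least 1 CPM, and 65 of 99 members had a negative value. Without SM2 replicate 3, 30 members were called.

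**Figure D5:**
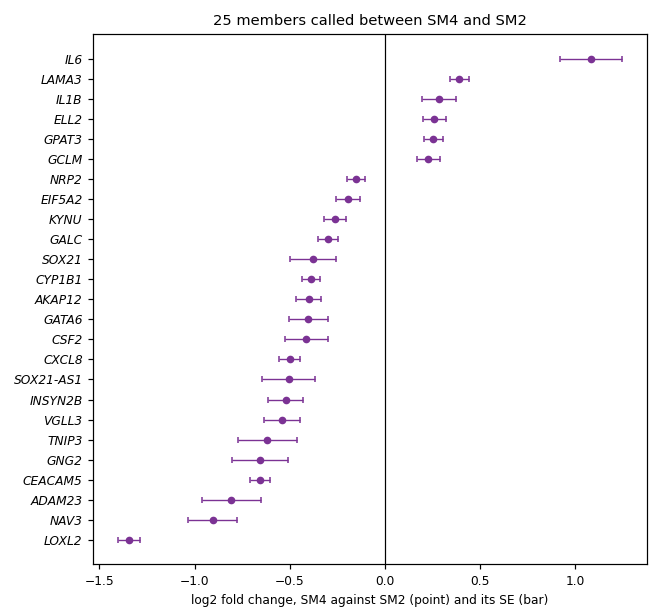
Log2 fold change of SM4 against SM2 (point) with its SE (bar) for the 25 members called in this comparison, sorted by value. The values run from -1.34 (LOXL2) to 1.08 (IL6), with 19 to the left of 0.

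Among the members lower in SM4 LOXL2 differed most, with a log2 fold change of -1.34 (SE 0.0554, adjusted p 9.65e-13) and all 3 libraries of SM4 below every library of SM2. NAV3, a microtubule-binding protein, followed at -0.91 (SE 0.13, adjusted p 5.32e-05), going from 5.93, 6.51 and 5.05 CPM in SM2 to 3.36, 3.08 and 2.92 CPM in SM4. ADAM23 had -0.81 (SE 0.157, adjusted p 0.00131), CEACAM5 -0.66 (SE 0.0511, adjusted p 1.89e-08) and GNG2, a G protein subunit, -0.66 (SE 0.147, adjusted p 0.00429). Each was lower in 3 of 3 libraries of SM4 than in any of SM2. CXCL8 (-0.50, adjusted p 2.83e-06), CYP1B1 (-0.39, adjusted p 7.87e-06) and AKAP12 (-0.40, adjusted p 0.000187) were also lower.

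In the other direction IL6 was higher in SM4 by 1.08 (SE 0.161, adjusted p 7.71e-05) and LAMA3 by 0.39 (SE 0.048, adjusted p 7.99e-06). GPAT3 (0.25, adjusted p 0.00184) and ELL2, an RNA polymerase II elongation factor (0.26, adjusted p 0.00573), were higher by less. IL1B had 0.28 (SE 0.0869, adjusted p 0.0347), a call that was lost without NC replicate 2 (0.28), SM2 replicate 1 (0.28) or 2 (0.25), or SM4 replicate 2 (0.23) or 3 (0.29). GCLM, at 0.23 (adjusted p 0.0139), lost its call without SM4 replicate 2 (0.18). PTGS2 (-0.17, adjusted p 0.0844), BIRC3 (-0.10, adjusted p 0.127) and SEMA3C (-0.13, adjusted p 0.115) were not called, but all were called without SM2 replicate 3 (-0.22, -0.12 and -0.19). The value of AKR1C2 was -0.42 (adjusted p 0.0572), called without SM2 replicate 1 (-0.56). GPX3 was at 0.03 (SE 0.0423, adjusted p 0.698), one of 74 members for which no difference between SM4 and SM2 was detected.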

How the data were processed

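Poly(A) RNA of 9 libraries was sequenced, 3 for each label. The deposited values are raw counts per gene, which the authors made, per the labels, with fastp, HISAT2 and featureCounts of Subread on GRCh38; versions, annotation and strand setting are not given in the sources used here. The labels name a stranded paired-end kit and the methods of the study a single-end one, so the layout is uncertain.

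Totals of 44103272 to 63693728 counts gave CPM. Identifiers were matched to GENCODE 44 for 60507 of 60649 genes. Counts of 19674 genes that passed filterByExpr were fitted over all 9 libraries with edgeR 4.0.16 (TMM, quasi-likelihood F test, two-sided, R 4.3.3), with Benjamini-Hochberg adjustment over all genes and calls at an adjusted p below 0.05. The scripts were tested on simulated data first. Labels do not say that replicates came from separate cultures, so p-values measure only the spread between these libraries.

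The members, lists and motifs were chosen with earlier results of these data known. Named genes were METTL3, ADAM23, the 12 members with the largest smaller ratio, the 8 with the highest level in NC, up to 5 of each list with 2 or more members, the 5 highest and 5 lowest called in SM4 against SM2, those nearest the limit, members within 500 kb of another and the 4 non-coding members with the most counts; other genes were named after their values were seen. Alternatives changed scaling, filter, test (DESeq2 1.42.0), libraries, thresholds and the replicate block. A few items are not reported here, and 97 members are drawn in the plot by library. Sequences came from RefSeq (GRCh38.p14) and GENCODE.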

Additional observations from a re-analysis of the deposited data

How the results depend on the processing

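The number of members depends on the limit: 418 genes met the rule with a ratio of at least 1.2 and 4 with a ratio of at least 2, while the other settings gave 79 to 130 and leaving out 1 library gave 99 to 118. Of the 99 members 16 were lost without NC replicate 1, the most for any library. In SM4 against SM2, 16 members were called at an adjusted p below 0.01 and 18 to 30 with 1 library left out. Over all genes 1393 were called at an adjusted p below 0.01, and 1574 to 2748 with 1 library left out, where 1574 came without SM4 replicate 1, against 2518 in all libraries. Whether the replicate numbers pair the libraries was not settled. Correlations of same-numbered libraries ran from -0.105 to 0.165, and 6 of 9 libraries correlated best with their own number. With the replicate block 26 members and 2815 genes were called. Of the 25 called members 16 stayed past the threshold of 0.05 in every alternative fit, no value turned its direction, and CSF2, EIF5A2, GATA6, GCLM, IL1B, NRP2, SOX21, SOX21-AS1 and TNIP3 lost the call in at least 1; the cause was not tested. Members of a few CPM rest on as few as 23 counts in a library, so small differences between SM4 and SM2 were not detectable for them.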
